A study of Mus musculus with 4 samples.

Results

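Of the 2847 reproducible INO80 peaks of mouse zygotene spermatocytes, 624 lay with their centre inside an intron and 1 to 1000 bp downstream of the nearest transcription start site (TSS). They were taken from the authors' annotated peak list by those 2 columns alone, the distance to the TSS and the annotation of the peak centre. They made up 624 of the 1772 reproducible peaks centred in that first kilobase. The other 1148 were centred in a coding or non-coding exon (409), in a 5' UTR (306), in sequence annotated as promoter (352) or in other classes (81). A further 164 intronic peaks of the reproducible set lay outside the first kilobase.

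INO80 is the ATPase of a large chromatin remodelling complex that slides nucleosomes and acts on nucleosomes carrying the histone variant H2A.Z. In yeast, the complex is known for positioning the nucleosomes that flank the nucleosome-free region of promoters, the nucleosome just downstream of the TSS included. In mammals many promoters lie in CpG islands, GC-rich stretches in which CpG dinucleotides are kept, and an island often runs past a short exon 1 into intron 1.

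The study profiled INO80 by chromatin immunoprecipitation sequencing (ChIP-seq) in 2 INO80 ChIP libraries, numbered replicates 1 and 2, beside 2 input libraries. All 4 came from testes of DBA/2J x C57BL/6J F1 mice whose first wave of spermatogenesis was synchronized. The males received fertilysin, an inhibitor of retinoic acid synthesis, for 7 days from 2 days post partum, then retinoic acid at 9 days post partum, and first-wave early zygotene spermatocytes were taken 8 days after retinoic acid. The cells were recovered on 28% Percoll, and how many animals went into a library is not stated in the labels.

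The INO80 libraries held 134.5 M (replicate 1) and 125.2 M (replicate 2) reads, of which 98.1 M and 82.6 M mapped uniquely, and the inputs held 128.7 M and 62.1 M. No processed file of the inputs was analysed here, so every value below describes INO80 peaks and none compares ChIP with input. The labels do not say that the replicates came from separate animals, so the spread between them may be technical. Peaks do not measure expression, so the labelled cell type could not be checked against its markers.

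Promoter windows are shown for the 6 members of highest mean fold whose window was wholly inside the peak, so that the sequence next to the strongest peaks can be read. Each runs 5' to 3' on the strand of its gene from 250 bp before to 50 bp after the TSS (RefSeq, GRCm38.p6). Capitals mark the GC box, GGGCGG on either strand, the core of the site bound by Sp and Klf family factors. A match is a description of the letters and not a binding site.
Fam53a, chr5:33629586-33629885, minus strand: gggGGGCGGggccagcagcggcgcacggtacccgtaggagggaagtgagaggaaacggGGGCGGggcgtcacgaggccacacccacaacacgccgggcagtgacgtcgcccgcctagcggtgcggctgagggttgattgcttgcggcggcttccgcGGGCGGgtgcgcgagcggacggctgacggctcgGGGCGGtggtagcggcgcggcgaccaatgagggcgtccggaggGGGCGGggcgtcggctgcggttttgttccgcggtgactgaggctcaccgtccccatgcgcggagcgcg
Aplp2, chr9:31211799-31212098, minus strand: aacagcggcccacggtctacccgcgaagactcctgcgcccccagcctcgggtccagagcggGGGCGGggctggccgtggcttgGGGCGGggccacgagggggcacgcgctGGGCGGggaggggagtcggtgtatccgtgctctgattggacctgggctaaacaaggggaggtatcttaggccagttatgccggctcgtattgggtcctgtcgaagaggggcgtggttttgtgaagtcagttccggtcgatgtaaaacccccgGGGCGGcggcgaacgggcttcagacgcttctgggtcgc
Proser2, chr2:6130136-6130435, minus strand: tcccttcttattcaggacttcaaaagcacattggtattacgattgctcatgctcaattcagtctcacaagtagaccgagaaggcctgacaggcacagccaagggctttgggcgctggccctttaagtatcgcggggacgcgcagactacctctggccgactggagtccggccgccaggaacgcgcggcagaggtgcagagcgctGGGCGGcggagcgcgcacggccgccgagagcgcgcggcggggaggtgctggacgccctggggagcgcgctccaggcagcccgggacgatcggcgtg
Unc5b, chr10:60831532-60831831, minus strand: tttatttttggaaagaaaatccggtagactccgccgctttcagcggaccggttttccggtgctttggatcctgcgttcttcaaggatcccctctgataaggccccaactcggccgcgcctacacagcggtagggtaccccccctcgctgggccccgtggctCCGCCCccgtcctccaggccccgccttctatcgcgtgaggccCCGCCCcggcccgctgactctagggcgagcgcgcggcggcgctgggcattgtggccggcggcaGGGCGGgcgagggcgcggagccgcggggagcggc
Bloc1s3, chr7:19508321-19508620, minus strand: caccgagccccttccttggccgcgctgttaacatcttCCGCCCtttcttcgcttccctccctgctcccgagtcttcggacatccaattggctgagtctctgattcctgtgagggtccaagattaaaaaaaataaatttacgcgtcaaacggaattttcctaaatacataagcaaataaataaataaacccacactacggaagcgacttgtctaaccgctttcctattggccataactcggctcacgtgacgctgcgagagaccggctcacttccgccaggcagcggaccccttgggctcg
Tnrc6c, chr11:117654039-117654338, plus strand: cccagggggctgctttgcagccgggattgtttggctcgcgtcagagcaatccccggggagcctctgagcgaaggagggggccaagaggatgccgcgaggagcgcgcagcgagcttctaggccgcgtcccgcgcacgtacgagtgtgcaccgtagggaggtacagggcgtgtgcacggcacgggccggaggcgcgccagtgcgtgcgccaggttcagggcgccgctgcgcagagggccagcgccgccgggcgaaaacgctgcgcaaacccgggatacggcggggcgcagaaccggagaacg

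The window of Fam53a held 5 GC boxes and 45 CpG dinucleotides in 300 bases, with a GC content of 74.3%. That of Aplp2, an amyloid precursor-like membrane protein, held 4 GC boxes and 29 CpGs at 67.0% GC, and that of Unc5b, a netrin receptor, held 3 and 36 at 69.7% GC. Proser2 had 1 GC box and 32 CpGs at 65.3% GC. Bloc1s3, a subunit of the BLOC-1 complex of lysosome-related organelles, also had 1 GC box, with 21 CpGs at 51.0% GC, the lowest GC content of the 6. Tnrc6c, a protein of the microRNA silencing complex, had no GC box in its window, which was 71.3% GC and held 40 CpGs. The number of GC boxes among these 6 windows thus ran from 0 to 5.

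Among all members, 463 could be matched to a RefSeq promoter window whose TSS lay within 5 bp of the one the authors' distance implies, and 309 of these windows were wholly inside the peak. A GC box was found in 378 of the 463 member windows (81.6%, exact 95% binomial interval 77.8% to 85.1%). The share was 70.7% in 844 windows of the other first-kilobase peaks, 66.7% for exonic and 69.3% for 5' UTR peaks, 78.8% for promoter-annotated peaks, 46.2% for all 21263 protein-coding promoters and 35.7% for all 32851 windows. At least 2 matches were found in 58.8% of member windows and 44.2% of the other first-kilobase windows, and at least 3 in 37.4% and 25.2%. The interval covers counting error only, and the classes were not tested against each other because peaks of the same libraries are not replicates.

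The median GC content was 66.3% in member windows and 66.0% in the other first-kilobase windows. It was 63.3% at exonic, 67.0% at 5' UTR and 68.3% at promoter-annotated peaks, and 56.3% in all protein-coding promoters. The median ratio of observed to expected CpG was 0.82 in member windows, 0.80 in the other first-kilobase windows, 0.75 at exonic, 0.80 at 5' UTR and 0.88 at promoter-annotated peaks, against 0.57 in all protein-coding promoters. A ratio of 0.6 or more, a usual mark of a CpG island, was reached by 88.1% of member windows, 82.6% of the other first-kilobase windows and 47.7% of all protein-coding promoters. Within the other first-kilobase windows it was reached by 74.9% at exonic, 83.8% at 5' UTR and 92.9% at promoter-annotated peaks, the last above the members. The part of GC content in the GC box share was not tested.

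**Figure D1:**
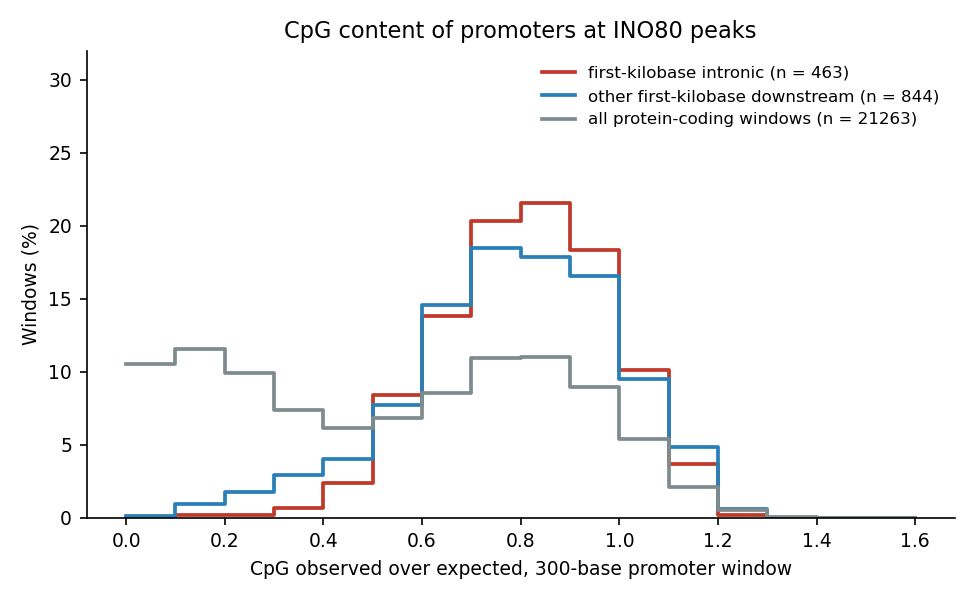
Distribution of the observed over expected CpG ratio (x axis, no unit) as the percent of promoter windows per bin (y axis), for the 463 member windows, the 844 windows of the other first-kilobase peaks and all 21263 protein-coding promoters. Member windows have a median of 0.82, against 0.57 in all protein-coding promoters.

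The plot of CpG ratios shows that the member windows lay together with those of the other first-kilobase peaks, in the CpG-rich part of the distribution over all promoters. At the peak centre, only intronic peaks could be set beside each other. In the authors' detailed annotation, which names CpG islands and repeats for intronic and intergenic centres, 482 of the 624 member centres lay in a CpG island (77.2%, interval 73.7% to 80.5%), against 79 of the 164 other intronic peaks (48.2%). The other intronic peaks are those outside the first kilobase, so this difference cannot be told apart from distance to the TSS. Of the remaining members, 128 had a plain intron as detail, 5 a SINE repeat, 4 a simple repeat, 3 low-complexity sequence, 1 a DNA transposon and 1 a satellite. Members centred in a CpG island had a median distance of 389.5 bp and a median width of 1481 bp, and those without one 553.5 bp and 1998 bp.

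The members were centred a median of 414.5 bp downstream of the TSS, with quartiles of 295 and 587 bp. Exonic, 5' UTR and promoter-annotated peaks of the first kilobase had medians of 378, 257 and 78 bp. All 230 reproducible peaks centred 1 to 100 bp downstream were annotated as promoter, so the annotation itself leaves no intronic peak there. The members nearest to the TSS were those of G3bp1, a stress granule RNA-binding protein, at 105 bp, Pld1, a phospholipase, at 106 bp, and Ripply2, a transcriptional repressor of somite formation, at 111 bp.

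Few intronic peaks lay near the distance limit of 1000 bp. Just inside it lay Smtnl2 at 998 bp with folds of 3.91 and 5.43 in replicates 1 and 2, Rbms1 at 982 bp with 4.81 and 4.83, and Bend4 at 980 bp with 4.81 and 7.26. Just outside lay Spen, a transcriptional corepressor, at 1010 bp with 3.45 and 5.59, Cck, the cholecystokinin gene, at 1011 bp with 2.94 and 4.73, and Zfp827 at 1022 bp with 3.57 and 4.65.

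Most members spanned the TSS although they were centred in an intron. The peak covered the TSS in 590 of 624 members (94.6%), in 97.3% of the other first-kilobase peaks and in 32.3% of the other intronic peaks. The remaining 34 members lay wholly downstream. The median member reached 364 bp upstream of the TSS and ended 1245 bp downstream of it. At least 50% of members covered every position from -360 to 1240 bp, and the same span was -380 to 1180 bp for exonic, -600 to 1180 bp for 5' UTR and -700 to 940 bp for promoter-annotated peaks. At 1000 bp downstream of the TSS, 69.4% of members were still covered, against 65.3%, 64.4% and 46.6% of the exonic, 5' UTR and promoter-annotated peaks. At 500 bp upstream the order was the other way, with 35.1% of members against 39.9%, 62.4% and 71.3%. The class of a peak is set by where its centre falls, so its upstream and downstream reach are partly fixed by the class.

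**Figure D2:**
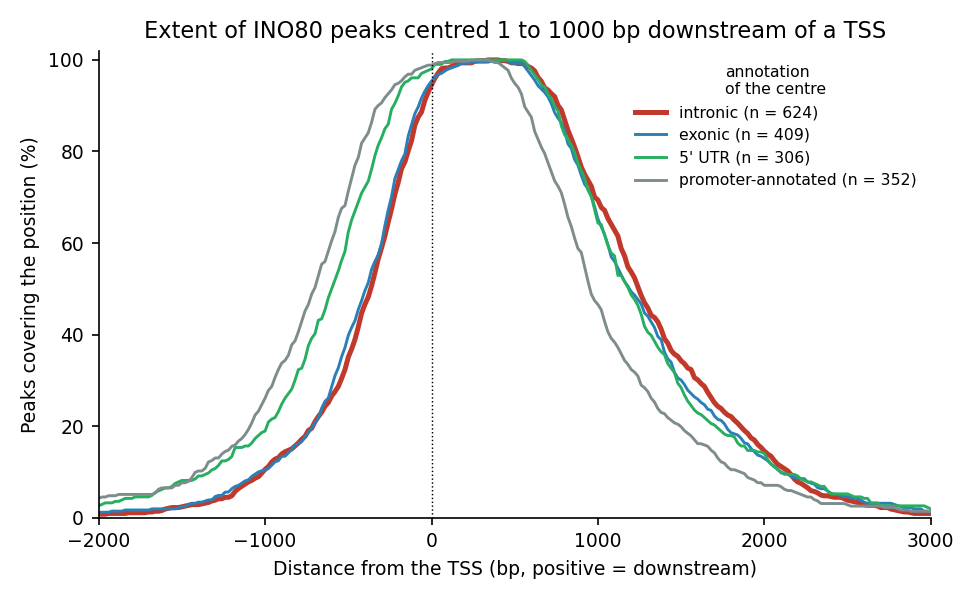
Percent of peaks covering each position (y axis) by distance from the TSS in bp (x axis, positive is downstream), for first-kilobase peaks with an intronic, exonic, 5' UTR or promoter-annotated centre. The intronic line is at 69.4% at 1000 bp downstream and at 35.1% at 500 bp upstream.

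The profile of covered positions shows nearly the same curve for intronic and exonic peaks, and a curve moved upstream for the promoter-annotated peaks. The centres of the replicates' own peaks placed most members in the same kilobase. Of the 463 members with a known strand, the replicate 1 peak was itself centred 1 to 1000 bp downstream at 431, upstream at 24 and beyond at 8, with a median position of 290 bp. The replicate 2 peak was centred within the kilobase at 450, upstream at 8 and beyond at 5, with a median of 387.5 bp. Replicate 1 centres differed from the reproducible centre by a median of -93.5 bp, towards the TSS, and replicate 2 centres by 0 bp.

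Nearly all centres lay in the opening intron of a transcript. The authors' annotation put 597 members in intron 1 (95.7%, interval 93.8% to 97.1%), 21 in intron 2, 2 in intron 3, 1 in intron 4 and 3 in intron 5. Of the 164 other intronic peaks, 94 were in intron 1 (57.3%). Members were chosen by their distance to a TSS, so their intron 1 share is partly fixed by the rule. The annotated transcript had a median of 9 introns, with quartiles of 4 and 17. It had only 1 intron in 30 members and as many as 115 in Syne2, a giant nuclear envelope protein of the linker between nucleus and cytoskeleton. The transcript that supplied the intron was the one with the nearest TSS at 455 members and another transcript at 169. It was the one with the nearest TSS at 442 of the 597 members in intron 1 and at 13 of the 27 in later introns. An intron number, 1 included, therefore does not always count from the TSS the distance refers to. Rank correlations between the number of introns and the fold were 0.018 in replicate 1 and -0.020 in replicate 2 over the 624 members.

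The 27 members in intron 2 or later were centred farther from the TSS, at a median of 543 bp against 406 bp for those in intron 1, and were wider, with a median of 2531 bp. Their median folds were 3.76 in replicate 1 and 4.97 in replicate 2. The strongest was Cbfb, the partner subunit of Runx transcription factors, in intron 2 with folds of 7.55 and 7.42. Akap1, which anchors protein kinase A at mitochondria, followed in intron 3 with 6.05 and 7.51. Fam98c had 5.24 and 8.28, Fbrsl1 in intron 5 had 5.05 and 7.72, and Gnal, a G protein alpha subunit, had 4.12 and 7.36.

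Members were a median of 1614 bp wide, with quartiles of 1179 and 2294 bp. The other first-kilobase peaks had a median of 1645 bp, and the other intronic peaks 2732 bp. The widest member was that of Egr3, a zinc finger transcription factor, at 7205 bp in intron 2, with folds of 3.76 and 7.68. Bcl2l11, which encodes the pro-apoptotic protein Bim, followed at 6801 bp with 3.86 and 5.68. Nfil3, a leucine zipper transcription factor, had 6294 bp with 3.21 and 5.81, Zfp516 had 5932 bp with 3.59 and 5.50, and Sfmbt2, a Polycomb-group protein, had 5809 bp with 3.62 and 5.23. The 5 widest thus had replicate 1 folds of 3.21 to 3.86, around the members' median of 3.76, and replicate 2 folds of 5.23 to 7.68, all above the median of 5.03. The narrowest members were the non-coding gene Oip5os1 at 482 bp, Zdhhc13, a palmitoyltransferase, at 539 bp, and Rpsa, a ribosomal protein, at 553 bp. Their folds were 3.09 and 3.81, 2.90 and 4.04, and 3.38 and 3.59.

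Width and position varied together. The median width was 1347 bp in the 49 members centred up to 200 bp from the TSS, 1337 bp in the 245 members at 201 to 400 bp, 1611 bp in the 184 at 401 to 600 bp, 2047 bp in the 97 at 601 to 800 bp and 2531 bp in the 49 at 801 to 1000 bp. Over the same bins the median fold was 3.64, 3.74, 3.64, 3.78 and 3.91 in replicate 1, and 4.56, 4.89, 5.37, 5.34 and 5.43 in replicate 2. The rank correlation of distance with width was 0.438 over the 624 members, and that of distance with fold was 0.076 in replicate 1 and 0.226 in replicate 2. Width correlated with fold at 0.253 in replicate 1 and 0.415 in replicate 2. These peaks come from the same libraries and a wider call can reach farther, so the coefficients are descriptions and carry no test.

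**Figure D3:**
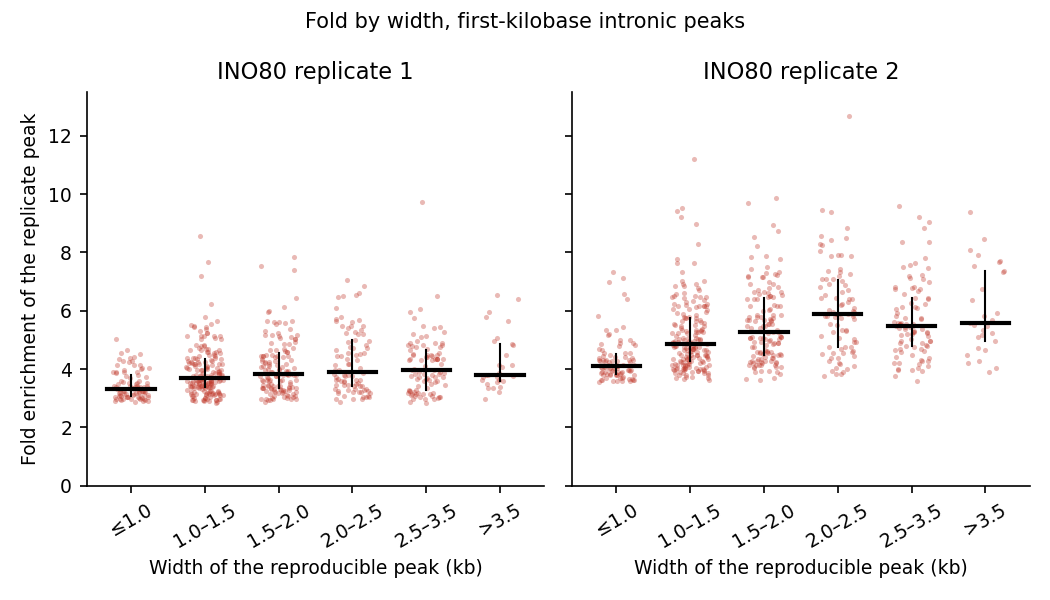
Fold of each of the 624 members (y axis, the peak caller's ratio) by width class of the reproducible peak in kb (x axis), with replicate 1 in the left panel and replicate 2 in the right. Bars are the median and lines the quartiles, and the class up to 1000 bp has the lowest median in both panels, 3.33 and 4.11.

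The plot of fold by width shows that the 91 narrowest members, up to 1000 bp wide, had median folds of 3.33 in replicate 1 and 4.11 in replicate 2. The 86 members over 2000 and up to 2500 bp wide had 3.90 and 5.89, and the 29 over 3500 bp had 3.79 and 5.58. The wider classes overlapped broadly, and the highest medians were not those of the widest peaks.

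The folds are the authors' own, written by their peak caller for each replicate, and are used here only to describe and rank peaks. In bulk chromatin, binding in fewer cells and less binding per cell cannot be told apart. All 624 members overlapped a peak in both replicate lists, which is largely fixed because the reproducible set was made from both. Their median fold was 3.76 in replicate 1, with quartiles of 3.30 and 4.45 and a range of 2.84 to 9.74. In replicate 2 the median was 5.03, with quartiles of 4.29 and 6.16 and a range of 3.55 to 12.7. The other first-kilobase peaks had medians of 3.67 and 5.05, exonic peaks 3.65 and 5.22, 5' UTR peaks 3.73 and 5.08, promoter-annotated peaks 3.66 and 4.85 and the other intronic peaks 3.60 and 5.10. The class medians differed from each other by less than the replicates of any class did. The members were higher than the other first-kilobase peaks in replicate 1 and lower in replicate 2.

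The fold was higher in replicate 2 at 595 members (95.4%), beside 96.6% of all reproducible peaks with a fold in both replicates. The members' share was therefore close to that of the whole set. After each fold was divided by its replicate's median over all reproducible peaks, 41.5% of members and 47.9% of all peaks were higher in replicate 2. The ranks of the folds correlated at 0.637 over the 624 members and at 0.601 over 2839 peaks of the whole set. The authors selected this set for reproducibility between these same replicates, so the coefficients are partly fixed by that selection and are no independent measure of agreement. The replicate 1 peaks at the members were narrower, with a median of 897 bp covering a median of 57.2% of the member, against 1406 bp and 91.9% for replicate 2. The dates in the peak names differ between the replicates, so date and replicate cannot be told apart.

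Some members departed from this common shift. Pqlc3 had folds of 3.30 in replicate 1 and 7.89 in replicate 2, Fam78b 3.55 and 8.27, and Ntn1, which encodes the guidance cue netrin, 3.13 and 6.78. The opposite order was most marked at Prkab2, a regulatory subunit of AMP-activated protein kinase, with 7.20 in replicate 1 and 4.64 in replicate 2. Atp5g3, a subunit of mitochondrial ATP synthase, had 5.55 and 4.39, and Srsf7, a splicing factor, 4.66 and 3.92.

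**Figure D4:**
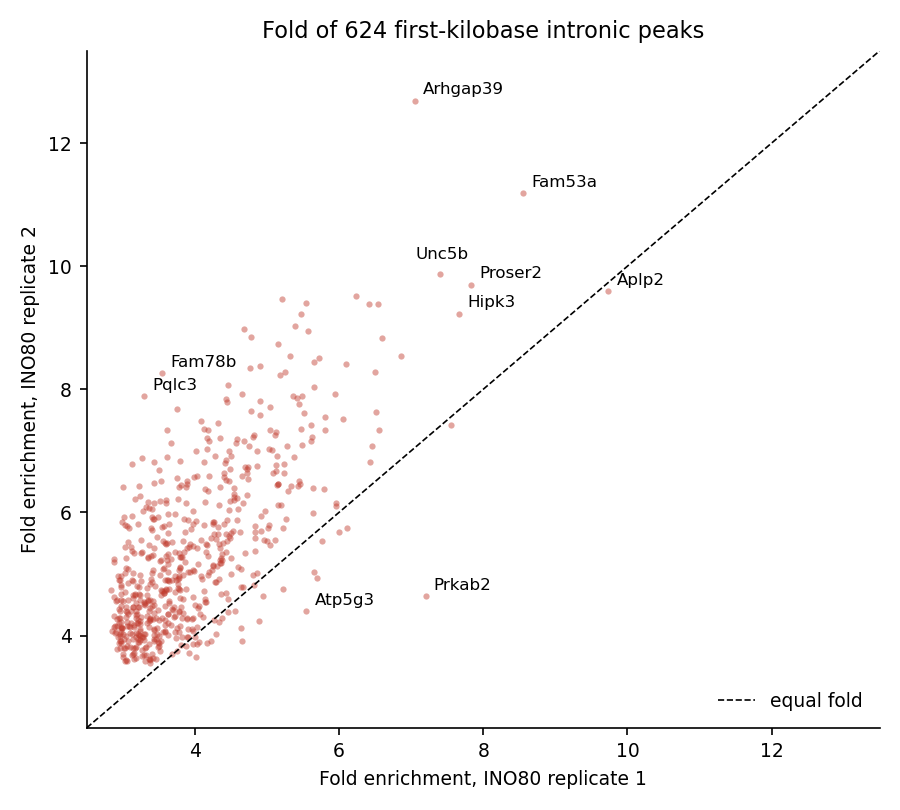
Fold of each of the 624 members in replicate 1 (x axis) and replicate 2 (y axis), both the peak caller's ratio on linear axes, with the line of equal fold. Named are the 6 members of highest mean fold and the 2 with the highest and the 2 with the lowest ratio of replicate 2 over replicate 1, and 595 points lie above the line and 29 below it.

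In the plot of folds the strongest members stood at the upper end in both replicates. They were ranked by the mean of these same folds, so that position is partly fixed by the ranking. Arhgap39, a GTPase-activating protein, had the highest mean, with 7.05 in replicate 1 and 12.7 in replicate 2. Its peak spanned 2261 bp of chromosome 15, from 76816235 to 76818495 (GRCm38), and was centred 801 bp from the TSS. Fam53a followed with 8.56 and 11.2, on chromosome 5 from 33628566 to 33629985, centred at 360 bp. Aplp2 had the highest replicate 1 fold, 9.74, beside 9.59 in replicate 2, on chromosome 9 from 31209679 to 31212414 and centred at 802 bp.

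The next members were close to each other. Proser2 had 7.83 and 9.70 on chromosome 2 from 6128805 to 6130603. Unc5b had 7.41 and 9.87 on chromosome 10 from 60830061 to 60831977. Hipk3, a homeodomain-interacting protein kinase, had 7.66 and 9.23 on chromosome 2 from 104492990 to 104494473. These 3 peaks were centred at 481, 562 and 758 bp.

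Bloc1s3 had 6.55 and 9.39 on chromosome 7 from 19506459 to 19508871. Tnrc6c had 6.41 and 9.39 on chromosome 11 from 117653329 to 117656854, and at 3526 bp its peak was the widest of the 10. B4galnt3, a glycosyltransferase, had 6.24 and 9.52 on chromosome 6 from 120293608 to 120295073, and Usp13, a deubiquitinase, 6.60 and 8.83 on chromosome 3 from 32816944 to 32819069. All 10 were annotated to intron 1. At the other end stood Cpt1a, which imports fatty acids into mitochondria, with 3.03 and 3.59, Asns, asparagine synthetase, with 3.04 and 3.59, and Spire2, an actin nucleator, with 3.05 and 3.59. The peak of Cpt1a was 3310 bp wide, so a low fold was not always a narrow peak.

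The members belonged to 620 gene symbols, and the authors' gene types gave 612 peaks to protein-coding genes, 11 to non-coding genes and 1 to a pseudogene. Over all 21887 protein-coding RefSeq genes, 608 had a member peak (2.78%) and 2173 had any reproducible peak centred within 1000 bp of the TSS (9.93%), so 28.0% of the genes with a peak carried an intronic one. Member genes had a median length of 48226 bp, against 20581 bp at exonic, 57020 bp at 5' UTR and 37640 bp at promoter-annotated peaks. Over all reproducible peaks it was 32673 bp, so member genes were above that median but below those at 5' UTR peaks. Member peaks on the X chromosome were 2 of the 15 X peaks (13.3%), at Dock11 and Esx1, beside 21.9% of all reproducible peaks, and these counts are too small to read a difference from. The gene groups below are counted against both background shares, without a test.

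Genes of cell signalling were among the lists with the highest shares, and these lists also had many peaks of other classes. Of their genes with any peak, 29.2% of receptor tyrosine kinases and feedback genes, 32.1% of Wnt, BMP and TGF-beta genes and 26.1% of axon guidance genes had an intronic one, near the 28.0% of all protein-coding genes with a peak. Of 56 receptor tyrosine kinases and their feedback genes, 7 had a member peak (12.5%) and 24 any peak within 1000 bp (42.9%). The 7 had median folds of 3.51 and 6.12. Kit, the stem cell factor receptor that also marks differentiating spermatogonia, had 4.81 and 7.22, Spred2, an inhibitor of Ras signalling, 4.33 and 6.12, Epha2, an ephrin receptor, 3.53 and 6.51, and Ptk7, a pseudokinase of Wnt signalling, 3.51 and 6.18.

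Of 77 genes of the Wnt, BMP and TGF-beta pathways, 9 had a member peak (11.7%) and 28 any peak. Smad1, which carries the BMP signal into the nucleus, had 5.76 and 5.53, Tgfbr3, a TGF-beta co-receptor, 4.48 and 6.71, Bmpr1b, a BMP receptor, 4.41 and 5.81, and Axin2, a negative feedback gene of Wnt signalling, 3.85 and 5.90. Of 56 axon guidance genes, 6 had a member peak (10.7%) and 23 any peak. Beside Unc5b and its ligand Ntn1 these included the semaphorins Sema3f with 4.08 and 7.48 and Sema4d with 4.66 and 4.80.

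Developmental transcription factors had a member peak at 10 of 116 genes (8.62%) and any peak at 47 (40.5%). Of their genes with any peak, 21.3% had an intronic one, below the 28.0% of all protein-coding genes with a peak. Klf5 had 6.46 and 7.09, Bach1, a repressor of oxidative stress genes, 6.00 and 5.68, and Ebf1, a B cell factor, 4.95 and 4.64. Potassium and calcium channels had 4 of 49 (8.16%) beside 21 with any peak, so 19.0% of those with a peak had an intronic one, also below 28.0%. They were led by Cacnb2, a calcium channel subunit, with 5.47 and 9.22. Kcnj12 had 4.14 and 6.37, Kcnh1 3.03 and 5.44 and Cacna1b 3.46 and 4.29.

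Ubiquitin ligases and deubiquitinases had a member peak at 8 of 89 genes (8.99%) and any peak at 15, so 53.3% of those with a peak had an intronic one, beside 28.0% of all protein-coding genes with a peak. The difference was not tested. Beside Usp13, the ligases Nedd4 had 5.96 and 6.16, Cblb 4.60 and 5.11 and Nedd4l 3.83 and 5.27. Cytosolic ribosomal proteins had 1 of 60, Rpsa, and no other peak within 1000 bp of a TSS.

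Among the germline lists, the spermatogonial one had the highest share of genes with a member peak. Of its genes with any peak, 33.3% had an intronic one, near the 28.0% of all protein-coding genes with a peak. In both meiotic lists below that share was 66.7%, on only 3 genes with any peak in each. Of 34 spermatogonial genes, 4 had a member peak (11.8%) and 12 any peak. Beside Kit these were Sall4 with 3.73 and 4.96, Zbtb16, a stem cell repressor also called Plzf, with 2.88 and 5.19, and Dnmt3b, a DNA methyltransferase, with 3.36 and 4.14. Of 39 genes of meiotic recombination and break formation, 2 had a member peak (5.13%) and 3 any peak. They were Mei1, needed for meiotic DNA breaks, with 3.14 and 5.02, and Mnd1, a partner of the strand exchange enzymes, with 3.49 and 4.41. Of 30 genes of synapsis, axis, cohesin and telomere attachment, 2 had a member peak and 3 any peak, namely Syne2 with 4.23 and 5.07 and Sun1, which tethers meiotic telomeres to the nuclear envelope, with 3.53 and 3.91. Syne2 was above the members' median fold in both replicates, and Mei1, Mnd1 and Sun1 were below it in both.

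Chromatin and repair lists held shares of 4.35% to 5.13%, on counts of 2 to 4 genes, beside 2.78% of all protein-coding genes. Any peak was found at 15.2% of repair, 12.8% of histone enzyme and 10.9% of remodeller genes, beside 9.93% of all protein-coding genes. Of those with any peak (10, 10 and 5 genes), 30.0%, 40.0% and 40.0% had an intronic one, beside 28.0% of all protein-coding genes with a peak. DNA repair and damage signalling genes had 3 of 66 (4.55%) beside 10 with any peak. Among them, Tigar, a metabolic target of p53, had 6.10 and 8.42, and Cdkn1a, the cell cycle inhibitor p21, 4.12 and 6.81. Both were above the members' median in both replicates. Histone modifying enzymes had 4 of 78 (5.13%), namely Pcgf5, a Polycomb subunit, with 4.75 and 7.08, Kmt5b with 2.88 and 5.25, Suv39h2 with 3.92 and 3.72 and Ehmt1 with 3.18 and 3.80, the last 3 being histone methyltransferases. ATP-dependent nucleosome remodellers had 2 of 46 (4.35%), Chd6 with 3.21 and 4.47 and Baz1b with 3.59 and 4.07. Markers of Sertoli, Leydig, endothelial and macrophage cells had 1 of 31, Egfl7 with 2.98 and 4.12, beside 7 with any peak. That is 14.3% of those with a peak, below 28.0% but on only 7 genes.

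**Figure D5:**
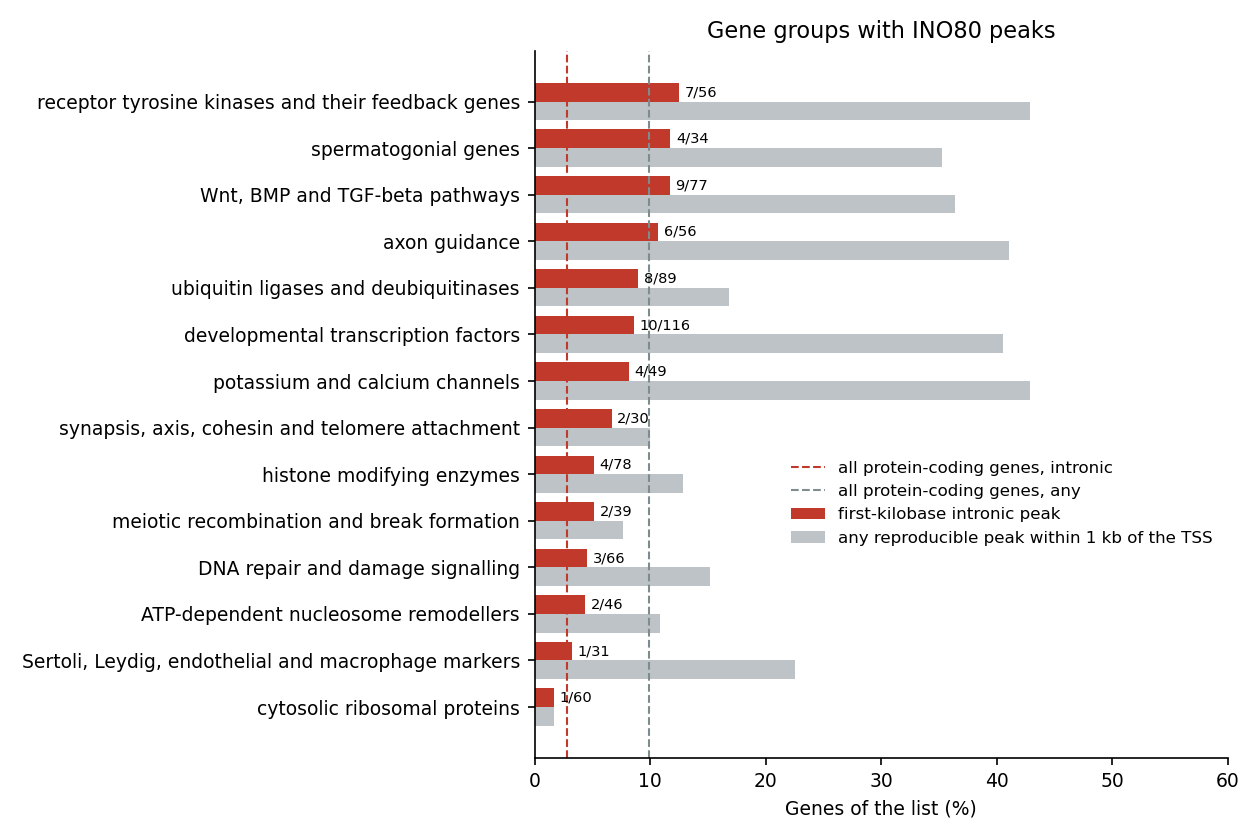
Percent of the genes of each list (x axis) with a first-kilobase intronic peak (red, with the count) and with any reproducible peak within 1 kb of the TSS (grey). Dashed lines give the same shares over all protein-coding genes, 2.78% and 9.93%.

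The bars of gene groups show that the 4 lists with the highest red shares were also among those with high grey shares. The authors also deposited a table of 81 genes with INO80 peaks under repair, chromatin and meiosis headings, and 28 of them carried a member peak. Since the authors chose that table from these peaks, the count is no independent support. By heading of the authors' deposited table, members were 14 of 42 DNA repair (33.3%), 8 of 30 chromatin remodeling (26.7%) and 6 of 9 meiosis I genes, beside 28.0% of all protein-coding genes with a peak. The repair and remodeling shares were near that background. The 28.0% counts only genes with a peak within 1000 bp of the TSS, and whether the authors' table keeps that limit was not checked. Of reproducible peaks at any distance, 21.9% were members.

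Under the repair heading of the authors' deposited table, Tigar, Bach1, Axin2 and Kmt5b had the folds given above, and Emsy, a partner of Brca2, had 4.43 and 4.68. Nucks1, a chromatin protein, had 4.17 and 3.87, Ube2w, a ubiquitin-conjugating enzyme, 3.96 and 4.11, and Morf4l1, a chromodomain protein also listed under remodeling, 3.79 and 4.39. Meaf6, a subunit of histone acetyltransferase complexes, had 3.73 and 4.71, Otub2, a deubiquitinase, 3.57 and 4.70, Fh1, fumarate hydratase, 3.54 and 4.29, and Usp7, a deubiquitinase, 3.37 and 4.24. The repair genes thus ran from Tigar, among the stronger members, to Spire2, among the 3 weakest.

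Under the remodeling heading, Anp32e, a chaperone that removes H2A.Z from nucleosomes, had the highest folds, 4.996 and 5.54. Its relative Anp32b had 3.17 and 4.68, Myb, a transcription factor, 3.74 and 3.96, and Pax7, a transcription factor of muscle precursors, 2.98 and 4.68. Chd6, Baz1b and Suv39h2 are given above. Under meiosis I, Bcl2l11 and Dmrt1 were the strongest, and Dmrt1, a transcription factor of the germline and Sertoli cells, had 3.83 and 5.54. Cpeb1, a regulator of mRNA translation, had 3.90 and 4.11, beside Mei1, Mnd1 and Sun1. Antxr1, an anthrax toxin receptor that appears only under the manually curated heading, had 3.07 and 5.08. In the authors' separate curated list of 143 meiotic genes, 3 had a member peak (2.10%), namely Antxr1, Mnd1 and Sun1. Any reproducible peak within 1000 bp was found at 6 (4.20%). Over all protein-coding genes these shares were 2.78% and 9.93%.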

How the data were processed

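INO80 ChIP-seq was analysed from the authors' peak files for 2 INO80 ChIP libraries of synchronized zygotene spermatocytes; the 2 input libraries entered no comparison. Per the submitters' processing notes the tools were MACS2 2.2.7.1, deepTools 3.4.3, BWA, fastp, SAMtools 1.11 and Picard 2.21.2, on GRCm38. Not given in the sources used here are their roles and parameters and the control for peak calling. The deposited lists gave, for 5123 (replicate 1) and 7836 (replicate 2) peaks, a fold (a ratio over background) and −log10 p-values and q-values, in the columns of the broadPeak format. The deposited score column was not used. The reproducible set, with distance to the TSS, annotation and genes, is the authors' table with an IDR (irreproducible discovery rate) limit of 0.05 in its title.

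Members had a distance of 1 to 1000 bp and an intron annotation. A replicate's fold was that of its strongest peak overlapping the member by at least 1 bp. Width was end minus start, counted inclusively. Strand was known only where a RefSeq window (250 bp before to 50 bp after the TSS, GRCm38.p6) matched the implied TSS within 5 bp. Motifs were searched on both strands. Shares have exact (Clopper-Pearson) 95% intervals for counting error only. Read numbers per peak were not in the files used here, so the depth behind a single fold is unknown. No test was made: there is 1 condition with 2 replicates, and peaks are not replicates. The overlap code was tested on simulated data, and the motif search was not.

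Genes were named by rule: the 10 highest and 3 lowest mean folds, the 5 widest and 3 narrowest, the 5 strongest beyond intron 1, the 3 most extreme replicate ratios on each side, the 3 nearest to the TSS and 3 on each side of the distance limit, genes with more than 1 member, up to 4 per gene list, and all members in the authors' selected genes. 1 gene that the rule names and 1 further gene list are not reported here. The members, 14 gene lists and motifs were chosen with earlier results of these data known. Alternatives were other distance limits, overlaps, q limits, comparison classes, fold definitions and leaving out each replicate. Software was Python 3.11.15 with pandas 2.3.3, numpy 2.4.6, scipy 1.17.1 and matplotlib 3.10.9.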

Additional observations from a re-analysis of the deposited data

How the results depend on the processing

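Of 32 alternatives that kept both replicates, 23 left a value within its limit and 9 moved it. The limit was the spread of the replicates or the interval, and for counts of members it was a fixed ratio. A distance limit of 500 bp left 396 members and 2000 bp gave 690. The share in intron 1 was 97.2% at 500 bp and 97.1% with only introns of the nearest promoter's transcript, an alternative chosen after seeing the data, against 95.7%. The share of members with the higher fold in replicate 2 became 41.5% once folds were divided by each replicate's median. The difference of the median replicate 2 fold, members minus the other first-kilobase peaks, was -0.018, and it was -0.186 against exonic and 0.184 against promoter-annotated peaks; in replicate 1 it was 0.083. The difference of the median width, -30.5 bp, became -177.5 bp at 500 bp, 29.0 bp against exonic and -177.0 bp against 5' UTR peaks. Leaving out each replicate gave a median mean fold between 3.76 and 5.03, against 4.41, and with 2 replicates this range only restates their difference. The causes were not tested. With an overlap of at least 50% of the member required, 407 members kept a replicate 1 peak and 615 a replicate 2 peak. No paired analysis was possible because the input libraries have no processed values here and only 1 condition has peaks.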

Other observations

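Some members covered a second TSS, on the opposite strand. Whether it lay upstream of the first, as in a divergent gene pair, was not checked. Among the 463 members with a matched promoter window, 47 (10.2%, interval 7.55% to 13.3%) also held the TSS of another gene on the opposite strand, against 16.1% of 844 other first-kilobase peaks, 6.60% of exonic, 9.65% of 5' UTR and 31.4% of promoter-annotated peaks. These 47 had a median width of 2147 bp and median folds of 3.96 in replicate 1 and 5.08 in replicate 2. The part of width in these shares was not tested.

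In 4 genes more than 1 start carried a member peak. Dab1, an adaptor of reelin signalling, had a peak on chromosome 4 from 103618037 to 103621778 with folds of 5.65 and 8.45 in replicates 1 and 2, and another from 104366901 to 104368743 with 4.34 and 5.49. Epb41l3, a membrane skeleton protein, had 3.79 and 6.84 at the stronger peak and 3.40 and 5.01 at the weaker. Sgk3, a serine/threonine kinase, had 4.64 and 5.08 beside 3.45 and 3.62, and Rora, a nuclear receptor, had 3.43 and 5.31 beside 3.60 and 4.76.

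Other motifs were found in the member windows at shares close to those of the other first-kilobase windows. The E-box CACGTG was in 10.2% of member windows, 10.8% of the others and 7.84% of all protein-coding promoters. The motif CNCCTCAG, reported for the meiotic factor STRA8, was in 9.07%, 8.06% and 8.52%, and the TATA box TATAAA in 6.05%, 5.92% and 12.6%. The ETS core CCGGAAG was in 8.21%, 9.72% and 11.6%, the CRE TGACGTCA in 3.24%, 2.37% and 2.23%, the NRF1 core GCATGCGC in 5.18%, 3.67% and 3.52%, the YY1 motif AAGATGGCG in 1.51%, 1.07% and 1.83%, and CCAAT in 33.3%, 35.2% and 38.2%. No microRNA hairpin of the 1005 in the RefSeq table lay wholly inside a member peak, while 32 lay inside a reproducible peak of any class. Members were 21.9% of the reproducible peaks. The hairpin counts were not scaled to the sequence covered, and the difference was not tested.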
